A study of Arabidopsis thaliana with 6 samples.

Results

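The 6 sigma factor genes of the plastid RNA polymerase, SIG1 to SIG6, were taken as a gene family, by their gene identifiers, from the 32833 genes of the deposited count table, and all 6 were present and passed the low-count filter. Transcripts were counted by RNA sequencing in pools of 40 to 60 whole Arabidopsis thaliana seedlings, 3 pools of the wild-type accession Col-0 and 3 of gi-2, a mutant allele of the clock and flowering gene GIGANTEA (GI) for which no transgene is named. All 6 pools had grown on 0.5x MS medium for 7 d at 22 °C under light of 80 µmol m-2 s-1, with 8 h of light and 16 h of darkness a day, and were frozen at lights-on (ZT0, 0 h). The replicates are described as biological, but nothing says whether the pools came from separate sowings, so p-values measure only how these pools varied, which may be technical. GI transcript was present in every library, from 2.68 to 3.77 CPM (read counts scaled to library size by TMM, per 1000000) in the wild type and from 6.96 to 8.79 CPM in the mutant. This level says nothing of GI protein. Each library held 18739317 to 23617717 counts.

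Chloroplasts keep a small genome that is read by a bacterial-type polymerase called PEP. The catalytic subunits of PEP are encoded in the plastid itself, but the sigma factors, which bind the core and direct it to promoters, are encoded in the nucleus and imported, so that the nucleus can set which plastid genes are transcribed. SIG2 and SIG6 are known for early chloroplast development and for plastid tRNA and photosynthesis genes, SIG1 for photosystem genes, SIG3 for psbN, SIG4 for ndhF, and SIG5 for the light-responsive promoter of psbD. SIG5 is induced by blue light and by stress, and carries circadian timing to the plastid.

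The family members are distant relatives, which bears on how well short reads can tell them apart. From the RefSeq TAIR10.1 annotation, the proteins are 419 (SIG4) to 572 (SIG2) residues long, and pairs of them were identical at 24.1% (SIG3 and SIG5) to 34.4% (SIG2 and SIG6) of aligned residues. The longest exact run shared by any pair of coding sequences was 20 bases (SIG1 and SIG4), and for the other pairs it was 10 to 14 bases. The 60-base coding stretch that follows covers the ungapped window of 20 codons with the most identical residues, which lies in the conserved region of sigma factors that includes the contact with the polymerase core. It is shown because it is the most alike part of the family by residues. Capitals mark the 16 base positions that are the same in all 6 genes, and 6 of the 20 residues are the same.
SIG1: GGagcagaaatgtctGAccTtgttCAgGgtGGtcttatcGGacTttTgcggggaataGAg
SIG2: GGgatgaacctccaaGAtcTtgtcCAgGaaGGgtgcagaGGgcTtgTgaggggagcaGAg
SIG3: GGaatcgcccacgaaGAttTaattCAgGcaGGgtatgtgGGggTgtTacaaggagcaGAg
SIG4: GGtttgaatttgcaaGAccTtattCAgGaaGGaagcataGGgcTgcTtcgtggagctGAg
SIG5: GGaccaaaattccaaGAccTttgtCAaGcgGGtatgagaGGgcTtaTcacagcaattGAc
SIG6: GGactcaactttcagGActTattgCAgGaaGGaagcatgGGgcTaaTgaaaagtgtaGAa

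Of the 6 genes, 4 were lower and 1 was higher in gi-2 at dawn, and SIG3 did not pass the test (edgeR quasi-likelihood test, Benjamini-Hochberg adjusted p under 0.05). Over all 19699 genes tested, 32.6% were called, 16.3% higher and 16.2% lower. For 5 of the 6 sigma factor genes the CPM ranges of the genotypes were separate, as they were for 45.3% of the genes tested. The median log2 fold change of the family, gi-2 over Col-0, was -0.48, and that of all tested genes was 0.00. SIG5, the light- and stress-induced member, had a mean of 27.7 ± 0.719 CPM in the mutant and of 79 ± 2.55 CPM in the wild type (mean ± SD, n = 3 each). SIG4 was the member that rose. In whole seedlings, fewer cells of a type and less RNA per cell cannot be told apart. The levels hold for ZT0 only, and a shift in timing over the day was not tested.

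**Figure D1:**
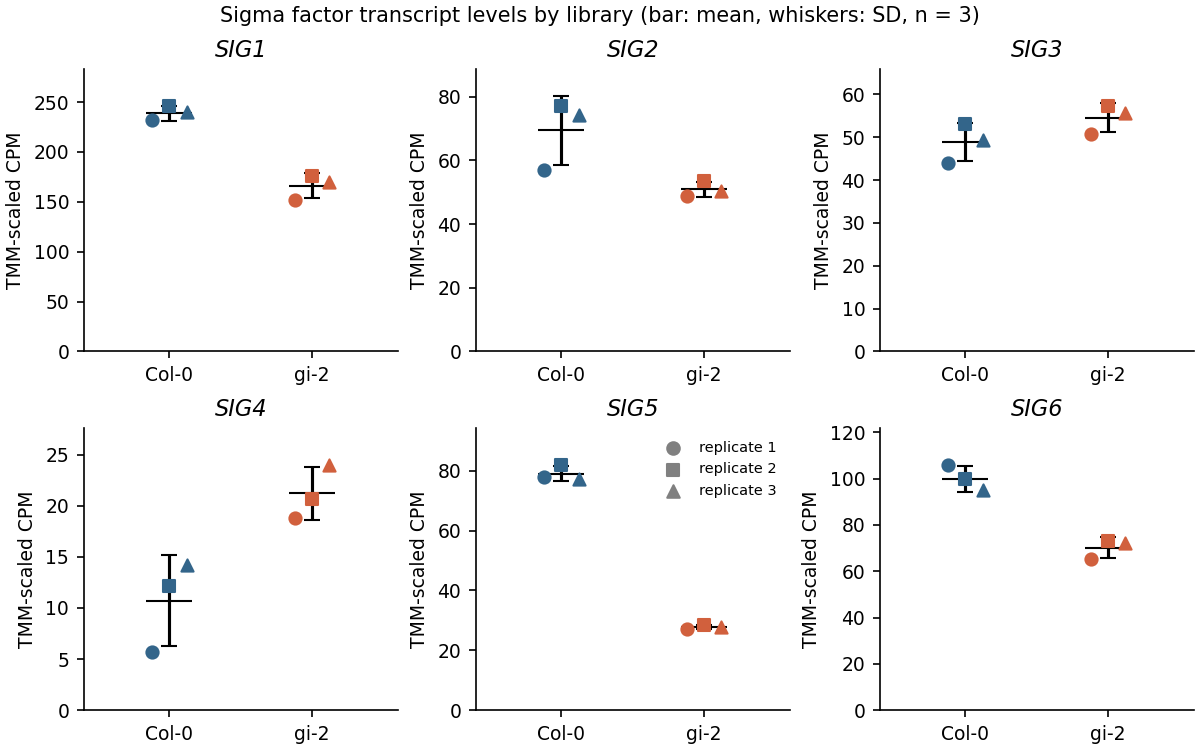
TMM-scaled CPM (vertical axes, from 0, 1 panel per gene) of the 6 sigma factor genes in each library of Col-0 and gi-2; symbols are replicates, bars are means and whiskers SD over 3 libraries. The genotypes do not overlap for SIG1, SIG2, SIG4, SIG5 and SIG6, and do for SIG3, with Col-0 replicate 1 lowest for SIG4 at 5.71 CPM.

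SIG5 (AT5G24120, named SIGE in the table; chromosome 5, 8157151 to 8160343, minus strand, TAIR10) had the largest change of the family. Replicates 1, 2 and 3 held 595, 679 and 554 counts for gi-2 and 1404, 1670 and 1531 counts for Col-0. On the scaled level this was 27, 28.4 and 27.7 CPM against 77.8, 82 and 77.4 CPM, so each gi-2 library stood far below each Col-0 library and the replicates of both genotypes lay close together. The level was 2.85-fold lower in gi-2 (log2 fold change -1.51, SE 0.08), with an edgeR adjusted p of 8.53e-09. Of the 19699 genes tested, 176 had a more negative log2 fold change than SIG5. Over 13 other settings of the analysis, which include leaving out each library, the log2 fold change of SIG5 ran from -1.54 to -1.49.

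The 250 bases before the annotated start of SIG5 (chr5:8160344-8160593, minus strand, RefSeq TAIR10.1) and of SIG4 (chr5:4430902-4431151, minus strand) are shown because these genes moved furthest and in opposite directions. Capitals mark matches on either strand to the letters of light and clock motifs: the G-box CACGTG, its core ACGT, the evening element AAAATATCT, the CCA1 binding site AAAAATCT, its variant AACAATCT and the I-box GATAAG. A G-box also holds the core. No other annotated gene lies in either window.
SIG5: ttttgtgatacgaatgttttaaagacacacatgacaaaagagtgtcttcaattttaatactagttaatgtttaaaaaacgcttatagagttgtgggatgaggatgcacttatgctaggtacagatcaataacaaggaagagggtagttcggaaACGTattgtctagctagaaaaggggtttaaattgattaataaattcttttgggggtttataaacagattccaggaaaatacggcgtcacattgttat
SIG4: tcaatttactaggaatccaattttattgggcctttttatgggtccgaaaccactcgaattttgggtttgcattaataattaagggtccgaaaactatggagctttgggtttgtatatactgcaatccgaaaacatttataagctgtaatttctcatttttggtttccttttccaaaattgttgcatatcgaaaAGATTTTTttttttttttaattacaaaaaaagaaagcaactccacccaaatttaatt
The SIG5 window held the ACGT core once, at 97 to 94 bases before the start, and so did 44.1% of 27438 windows before protein-coding genes. The SIG4 window held the CCA1 binding site letters on the opposite strand, 57 to 50 bases before the start, as 6.69% of windows did on either strand. SIG3, which did not pass the test, had the evening element letters 32 to 24 bases before its start, the ACGT core at 2 places and the I-box letters at 1. The evening element was in 2.36% of windows and the I-box in 12.3%. SIG1, SIG2 and SIG6 had no match to any of the motifs in this window. Another annotated gene overlaps the window of each of these genes, and the SIG3 window lies within the RNA gene AT3G00910. A match of letters is a description and not a bound site.

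SIG4 (AT5G13730, SIGD; chromosome 5, 4429095 to 4430901, minus strand) was the lowest member in Col-0 and rose in gi-2. Replicates 1, 2 and 3 held 415, 494 and 480 of its counts for gi-2 and 103, 247 and 281 for Col-0. The levels were 18.8, 20.7 and 24 CPM in gi-2 and 5.71, 12.1 and 14.2 CPM in Col-0, so the groups did not overlap, but Col-0 replicate 1 lay far below the other Col-0 libraries. The mean was 1.97-fold higher in gi-2 (log2 fold change 0.98, SE 0.23; edgeR adjusted p = 0.00447). Col-0 replicate 1 also stood apart from the other Col-0 libraries over all genes, on a principal component with 17.5% of the variance. Without it the log2 fold change was 0.68 (SE 0.13; edgeR adjusted p = 0.000745), and without Col-0 replicate 3 it was 1.24.

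A neighbour limits the reading of SIG4. The gene AT5G13720 lies on the other strand and its last part shares 201 bases with exons of SIG4, and the libraries carry no strand, so reads in those bases cannot be assigned. AT5G13720 had mean levels of 33.1 ± 2.57 CPM for gi-2 and 33.3 ± 3.21 CPM for Col-0 (edgeR adjusted p = 0.975 for a log2 fold change of -0.01, SE 0.10). No gene of the table overlapped the other 5 members. In RefSeq, the RNA gene AT3G00910 shares 1 base with the start of SIG3.

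SIG1, SIG2 and SIG6, the members tied to photosystem genes and chloroplast development, were lower in gi-2 by less than SIG5. SIG1 (AT1G64860, SIGA; chromosome 1, 24097736 to 24100970, plus strand) was the most abundant, at 152, 176 and 170 CPM in gi-2 and 232, 246 and 240 CPM in Col-0. These groups were well apart, and the log2 fold change was -0.53 (SE 0.08, adjusted p = 0.0001 by edgeR). SIG6 (AT2G36990, SIGF; chromosome 2, 15537225 to 15540139, minus strand) stood at 65.1, 73.2 and 72.2 CPM in gi-2 and 106, 99.8 and 95 CPM in Col-0. Its groups did not overlap either, and the log2 fold change was -0.52 (SE 0.08, adjusted p = 0.000169 by edgeR).

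SIG2 (AT1G08540, SIGB; chromosome 1, 2703295 to 2706860, plus strand) stood at 48.8, 53.6 and 50.4 CPM in gi-2 and at 57.1, 77.1 and 74.3 CPM in Col-0. The lowest Col-0 library, replicate 1, lay just above the highest gi-2 library. The log2 fold change was -0.45 (SE 0.10; edgeR adjusted p = 0.00424), and without Col-0 replicate 1 it was -0.58. SIG3 (AT3G53920, SIGC; chromosome 3, 19960789 to 19963980, minus strand) had 50.8, 57.3 and 55.7 CPM in gi-2 and 44.1, 53.1 and 49.4 CPM in Col-0. Its groups overlapped, and its log2 fold change of 0.16 (SE 0.09) did not pass (edgeR adjusted p = 0.201), which does not show that its level was the same.

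**Figure D2:**
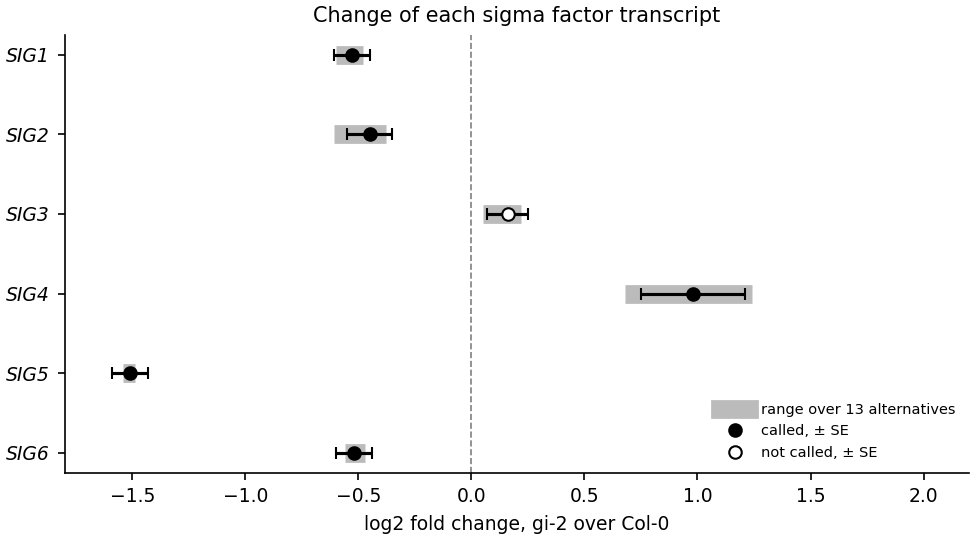
Log2 fold change of gi-2 over Col-0 (horizontal axis) for each sigma factor gene with its SE (whiskers), filled where called and open where not, over the range of 13 alternative settings (grey bars). SIG5 stands at -1.51, SIG1, SIG2 and SIG6 between -0.53 and -0.45, SIG3 at 0.16 and SIG4 at 0.98.

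Levels were then compared between members per length, as CPM per kb of the exon length in the table, which for all 6 genes equals the union of their RefSeq exons. SIG1 led in both genotypes, at 69.8 ± 5.3 CPM per kb in gi-2 and 101 ± 3.16 in Col-0, followed by SIG6 at 34.3 ± 2.16 and 49.1 ± 2.76. In Col-0 the order went on with SIG2 (33.9 ± 5.28), SIG5 (30 ± 0.969), SIG3 (22 ± 2.03) and SIG4 (7.34 ± 3.05). SIG2 and SIG5 overlapped there, and all other neighbours in the order were apart in every library. In gi-2 the order went on with SIG2 (24.9 ± 1.2), SIG3 (24.6 ± 1.54), SIG4 (14.6 ± 1.81) and SIG5 (10.5 ± 0.273), and only SIG2 and SIG3 overlapped.

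SIG5 thus moved from the middle of the family to its lower end. Levels, shares and ratios of SIG4 carry the doubt over reads in the 201 bases it shares with AT5G13720. Which of SIG4 and SIG5 was lowest in gi-2 also rested on the length used. SIG5 has 3 coding transcripts, and its union of exons, 2635 bases, is longer than any single transcript. With the 2128 bases of the RefSeq transcript with the longest coding sequence, SIG5 stood at 13 ± 0.338 CPM per kb in gi-2 and overlapped SIG4 at 14.6 ± 1.81, and without any length correction SIG5 was above SIG4.

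The summed level of the family per kb was 179 ± 11.5 in gi-2 and 243 ± 11.6 in Col-0. SIG5 made up 6.18%, 5.77% and 5.73% of this sum in gi-2 replicates 1, 2 and 3, and 12.8%, 12.3% and 12% in Col-0 replicates 1, 2 and 3. SIG4 made up 7.61% to 9% of it in the mutant against 1.7% to 3.98% in the wild type, and SIG3 13.7% to 13.8% against 8.6% to 9.41%. SIG1 made up 38.6% to 39.7% against 41% to 42.3%. For these 4 genes the shares did not overlap between genotypes, and for SIG2 and SIG6 they did. A share also moves with the levels of the other members, and the level of SIG3 itself overlapped and did not pass the test. The ratio of SIG5 to SIG4 per kb was 0.637 to 0.791 in the mutant against 3.01 to 7.52, the highest value being that of Col-0 replicate 1, and that of SIG5 to SIG1 was 0.146 to 0.16 against 0.29 to 0.302.

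**Figure D3:**
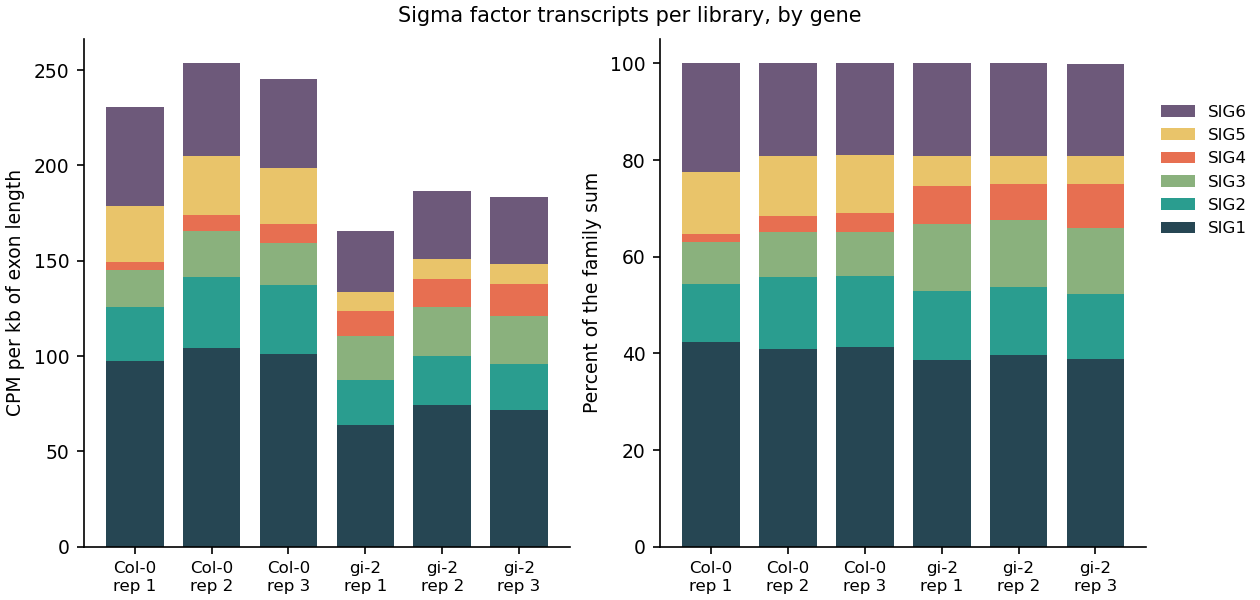
Sigma factor transcript levels per library, stacked by gene, as CPM per kb of exon length (left) and as percent of the family sum (right). The stacks are lower in the 3 gi-2 libraries, and the SIG5 band shrinks from 12% or more in Col-0 to 6.18% or less in gi-2 while the SIG4 band widens.

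Genes whose profile lay closest to that of each called member were taken from 17117 others whose average log2 CPM was 1 or more, by the Euclidean distance between mean-centred log2 CPM profiles over the 6 libraries. For SIG5 they were SPS2 (a solanesyl diphosphate synthase), GPAT3 (a glycerol-3-phosphate acyltransferase) and AT1G33110 (a MATE efflux family protein), at distances of 0.09, 0.10 and 0.12. SPS2 had 13.1 ± 0.647 CPM in the mutant against 38.7 ± 0.362 CPM. For SIG1 they were PSB29, TL29 and FTSH8, and PSB29, a thylakoid formation protein, stood at 181 ± 12.2 against 259 ± 8.87 CPM. Those of SIG2 were AT1G12250, AT4G02400 and FUT4, and those of SIG6 were AT4G17560, AT3G11510 and AT5G43150. For SIG4 the closest were AT1G09543, AT4G35985 and AT3G28370, at larger distances of 0.30, 0.30 and 0.31. These genes were chosen by distance alone, and the calls of AT4G02400, FUT4, AT1G09543, AT4G35985 and AT3G28370 changed with the libraries or settings used, so their calls are not given.

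Genes that work with the sigma factors were described by lists of the plastid transcription machinery, chosen by function. The PEP-associated proteins surround the core enzyme and are needed for its activity. Of 14 such genes, 11 were lower and 1 was higher in gi-2, with a median log2 fold change of -0.64 and no overlap between genotypes for 11, where of all tested genes 16.2% were lower, 16.3% higher and 45.3% without overlap. Leaving out gi-2 replicate 1, gi-2 replicate 3 or Col-0 replicate 2 gave 8 lower genes, and leaving out any other 1 library gave 11. FLN2, a fructokinase-like protein, stood at 9.43 ± 0.386 CPM in the mutant against 30 ± 5.84 CPM (log2 fold change -1.67, SE 0.14). Its relative FLN1 fell by 1.09 (SE 0.14), and PTAC12, also known as HEMERA and active in phytochrome signalling, fell by 1.06 (SE 0.12). PTAC6, named after its value was seen, was the gene that rose, by 0.48 (SE 0.08). Other genes of the table overlap PTAC12 and PTAC6, whose reads are uncertain to that extent.

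The phage-type RNA polymerases are single-subunit enzymes of plastids and mitochondria. Of these 3 genes 2 were lower, and none higher by edgeR, DESeq2 or limma-voom or at an unadjusted edgeR p under 0.05. RPOTp, the plastid enzyme, stood at 11.4 ± 2.59 CPM in the mutant against 26.2 ± 0.304 CPM (log2 fold change -1.21, SE 0.14). The mitochondrial RPOTm, which another gene overlaps, fell by 0.69 (SE 0.15). Of 9 genes of the plastid nucleoid and of transcript elongation and termination, 7 were lower and 1 higher (median -0.59). For both lists, the shares over all tested genes were 16.2% lower and 16.3% higher. MRL7-L, needed for PEP activity, fell by 0.94, PTAC13, a NusG-like elongation factor, by 0.59 and MTERF6, a termination factor relative, by 0.42, and other genes overlap each of these. PTAC5, the higher gene, named after its value was seen, stood at 37.2 ± 2.66 against 30.3 ± 1.09 CPM (0.30, SE 0.09), but it was no longer called without gi-2 replicate 3 (edgeR adjusted p = 0.135) or Col-0 replicate 2 (0.069), and over all alternatives this p ran from 0.0211 to 0.135.

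A further list held kinases and proteins that bind or modify sigma factors, the RelA/SpoT homologues that make or break the alarmone ppGpp, and GUN1 of plastid-to-nucleus signalling. Of its 10 genes 9 were tested, with 2 lower, 2 higher and a median of -0.09. In this list 44.4% of the tested genes were called, against 32.6% of all tested genes (16.2% lower and 16.3% higher). GUN1 stood at 171 ± 2.13 CPM in the mutant against 265 ± 7.88 CPM (log2 fold change -0.63, SE 0.07). The other lower gene was PTF1, also named TCP13, a factor that binds the psbD promoter, which fell by 0.66 (SE 0.14). RSH2 rose by 0.77 (SE 0.09) and RSH3 by 0.42 (SE 0.07), and another gene overlaps RSH3. PTF1 and the sigma factor binding proteins SIB1 and SIB2 were named after their values were seen. SIB1 stood at 0.701 to 1.27 CPM against 0.665 to 0.859 CPM. SIB2 had 0 counts in all 6 libraries, which allows up to 0.126 to 0.166 CPM by counting error. Another gene overlaps SIB2, and how shared reads were counted is not given, so this 0 does not show that the transcript was absent.

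**Figure D4:**
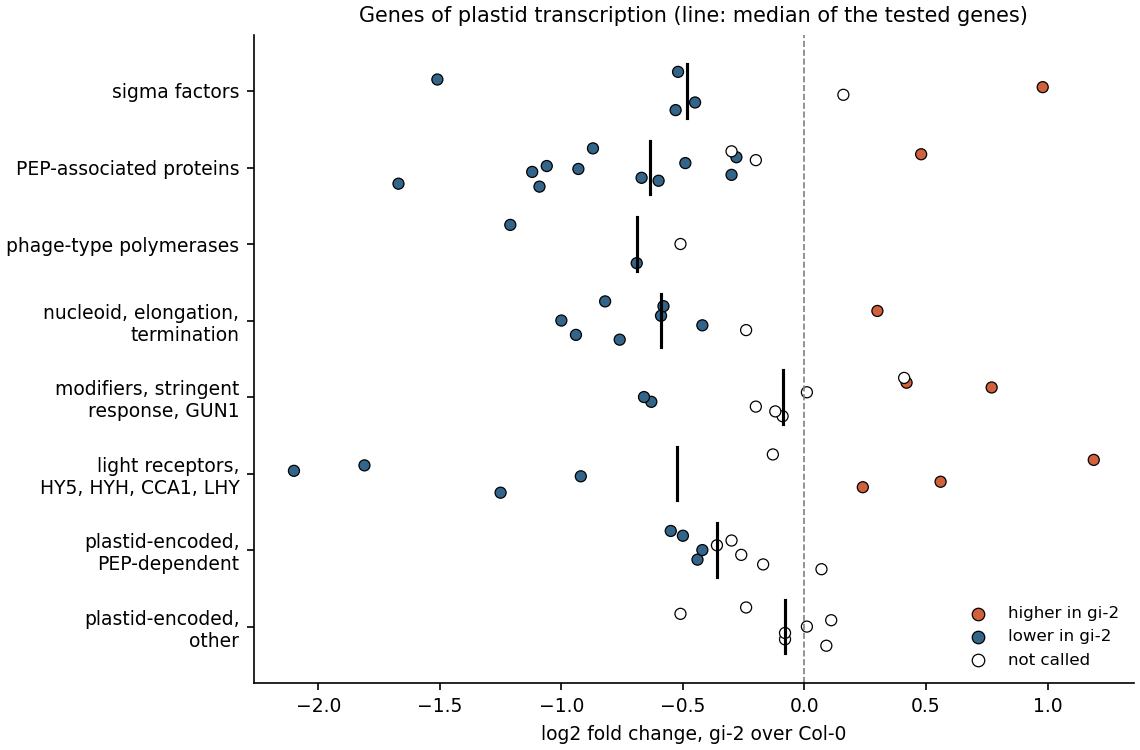
Log2 fold change of gi-2 over Col-0 (horizontal axis) for each tested gene of the sigma factor family and of 7 other lists, of plastid transcription, light and clock genes and plastid-encoded genes; filled points were called, open points were not, and lines are list medians. The sigma factors spread from -1.51 to 0.98 around a median of -0.48, and the PEP-associated proteins from -1.67 to 0.48 around -0.64.

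Genes known to act upstream of SIG5 or of light and clock control went both ways, with 4 of 8 lower and 3 higher. The shares over all tested genes were 16.2% lower and 16.3% higher. HYH and HY5, related bZIP factors of light signalling, fell by 2.1 (SE 0.15) and 0.92 (SE 0.14), HYH from 28.7 ± 1.53 to 6.68 ± 1.45 CPM and HY5 from 15.1 ± 0.96 to 7.96 ± 0.79 CPM. The dawn clock genes LHY and CCA1 fell by 1.81 (SE 0.07) and 1.25 (SE 0.08). The photoreceptor genes PHYA and CRY2 rose by 1.19 (SE 0.07) and 0.56 (SE 0.07). CRY1, of blue light sensing and, like CRY2, named after its value was seen, stood at 261 ± 10.3 against 221 ± 21.6 CPM (0.24, SE 0.08; edgeR adjusted p = 0.0343). The CRY1 call was lost without any 1 library other than Col-0 replicate 3, with an edgeR adjusted p of 0.064, 0.0832 and 0.155 without gi-2 replicates 1, 2 and 3, and of 0.0639 and 0.0706 without Col-0 replicates 1 and 2, and ran from 0.0156 to 0.155 over all alternatives.

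Transcripts of the plastid genome, which the sigma factors serve, were caught only in small part. They made up 0.0937%, 0.0715% and 0.0786% of the counts in gi-2 replicates 1, 2 and 3. In Col-0 replicates 1, 2 and 3 they made up 0.103%, 0.101% and 0.0941%. The genotypes were only just apart, and the CPM of single plastid genes carry this lower plastid fraction in gi-2. Of 81 plastid genes tested, 9 were lower by edgeR, 8 by DESeq2 and 10 by limma-voom, and the edgeR share is below the 16.2% of all tested genes called lower. None was higher by any of these tools, 1 was higher at an unadjusted edgeR p under 0.05, and the median log2 fold change was -0.25. Of 9 tested genes of a list read mainly by PEP, 4 were lower. The psbD gene, whose light-responsive promoter needs SIG5, stood at 18.4, 14.2 and 15.2 CPM in the mutant against 26, 23.2 and 18.7 CPM (edgeR adjusted p = 0.0128 for a log2 fold change of -0.50, SE 0.14). The groups were only just apart, and without gi-2 replicate 2 the call was lost (edgeR adjusted p = 0.0634, and 0.0032 to 0.0908 over all alternatives). As a share of the plastid counts of a library, psbD was 1.92% to 2.01% in the mutant and 1.99% to 2.43% in the wild type, which overlap, and psbC overlaps psbD on the plastid genome.

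The gene of the large Rubisco subunit, rbcL, fell by 0.55 (SE 0.11; 106 ± 16.3 against 156 ± 15.2 CPM) and was lower under all alternatives. As a share of the plastid counts of a library, rbcL was 12.6% to 13.7% in the mutant and 14.7% to 16.3% in the wild type. The photosystem genes psbA and psaA had log2 fold changes of -0.42 (SE 0.11) and -0.44 (SE 0.16), and the libraries of the genotypes overlapped for both. Their shares of the plastid counts overlapped too, at 13.1% to 15.2% against 13% to 17.9% for psbA and 4.05% to 4.84% against 4.23% to 5.82% for psaA. For psbA the call depended on gi-2 replicates 2 and 3 (edgeR adjusted p without each 0.0604 and 0.0569). The psaA call did not hold when gi-2 replicate 2 (edgeR adjusted p = 0.205) or 3 (0.0986) or Col-0 replicate 1 (0.161) or 2 (0.0836) was left out. Their adjusted p ran from 0.00061 to 0.0604 for psbA and from 0.0113 to 0.521 for psaA over all alternatives. Of the genes tied to single sigma factors, ndhF (SIG4), which another gene overlaps, stood at 2.88 ± 1.57 against 3.23 ± 0.666 CPM, psaJ (SIG2) at 11.3 ± 2.98 against 13.6 ± 2.02 CPM and atpH (SIG6) at 5.94 ± 0.571 against 5.65 ± 0.676 CPM. None of these 3 passed the test. As a share of the plastid counts, atpH was higher in the mutant, at 0.699% to 0.767% against 0.491% to 0.64%. The shares of ndhF and psaJ overlapped. The photosystem genes psbB and psbC had log2 fold changes of -0.36 (SE 0.13) and -0.30 (SE 0.14) and did not pass either. Both passed without gi-2 replicate 1 (edgeR adjusted p = 0.00551 for psbB and 0.0109 for psbC) and without Col-0 replicate 1 (0.022 and 0.0359). Besides, psbB passed by limma-voom (adjusted p = 0.0421), with no low-count filter (0.0297 by edgeR) and with both Col-0 replicate 1 and gi-2 replicate 2 left out (0.0414 by edgeR). Over all alternatives the adjusted p ran from 0.00551 to 0.218 for psbB and from 0.0109 to 0.4 for psbC. The gene tied to SIG3, psbN, had 5 to 10 counts per library and was not tested.

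The plastid-encoded core subunits of PEP did not pass the test: of rpoA, rpoB, rpoC1 and rpoC2, 0 of 4 were called by edgeR, DESeq2 or limma-voom, and 1 had an unadjusted edgeR p under 0.05. Their log2 fold changes ran from -0.51 (rpoC2, SE 0.21) to 0.11 (rpoC1, SE 0.19). As a share of the plastid counts, rpoC1 was higher in the mutant, at 0.749% to 0.805% against 0.56% to 0.596%. The share of rpoC2 was lower, at 0.497% to 0.591% against 0.608% to 0.688%, and those of rpoA and rpoB overlapped. With accD, clpP and ycf1 the list of plastid genes read at least in part by other polymerases had a median of -0.08, and ycf2 had 2 counts in all.

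Of 7 marker genes of green shoot tissue 5 were lower in gi-2 and 2 did not pass, and their summed level ran from 23417 to 27467 CPM in the mutant against 35441 to 37488 CPM. Of 10 root markers 3 were higher and 2 lower, at 2461 to 2640 against 3713 to 4131 CPM summed, and PYK10 made up most of both sums. Of all tested genes 16.3% were higher and 16.2% lower. Of 5 seed markers 4 were tested and were higher by edgeR (3 by DESeq2 and 1 by limma-voom), at 18.9 to 359 against 1.16 to 10.6 CPM, with gi-2 replicate 2 highest. No defining marker of shoot or root was at 0 counts. The part of these shifts in the sigma factor values was not tested. With both Col-0 replicate 1 and gi-2 replicate 2 left out, a choice made after seeing the data, 4 sigma factor genes were lower and 1 higher as before, SIG5 at -1.54 and SIG4 at 0.70.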

How the data were processed

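Libraries were cDNA without strand information, with an insert size of 250 to 300 bp, per the labels. The authors deposited 1 table of raw read counts per gene for the 6 libraries, made with STAR 2.5.5, HTSeq 0.6.1 and DESeq2 on TAIR10, per the submitters' processing notes. How the counting treated strand and multi-mapping reads is not given in the sources used. Library totals were 18739317 to 23617717 counts, so that 3 counts stood for 0.126 to 0.166 CPM, which covers counting error only. A total of 8687 of the 32833 genes had no count, and in 24 rows, none of them a member, the annotation columns were shifted.

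Genes were filtered with filterByExpr (minimum count 10, minimum total 15), scaled by TMM and tested with edgeR 4.0.16 (quasi-likelihood F test; R 4.3.3) on genotype, over 19699 genes, at a Benjamini-Hochberg adjusted p of 0.05. The SE is that implied by the F statistic. CPM are TMM-scaled. Alternatives were RLE scaling, DESeq2 1.42.0, limma-voom 3.58.1, no filter, a mean CPM of at least 1, a replicate block, leaving out each library, and, added after seeing the data, leaving out gi-2 replicate 2 with Col-0 replicate 1. The main edgeR fit was tested on simulated counts, with far fewer changed genes than were called here and a common spread for all genes. How it performs on data like these was not tested, and the other fits were not simulated.

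The rule for the members uses gene identity and no measured value, but members and lists were chosen with earlier results of these data known. By rule, the text names all members, GI, CCA1, LHY, HY5 and HYH, up to 3 called genes with the smallest adjusted p per list of nuclear genes, the plastid genes with at least 10 counts, in ranges, and the 3 closest profiles per called member (prior count 2). Sequences and gene structures are from RefSeq TAIR10.1, where 32508 of 32524 nuclear genes shared start and end with the table. Proteins were aligned with MAFFT 7.526.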

Additional observations from a re-analysis of the deposited data

How the results depend on the processing

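Over 13 alternatives, every sigma factor gene kept its call and its direction, with 4 lower and 1 higher in each. The adjusted p reached 0.0281 for SIG2 and 0.0254 for SIG4 at most, and ran from 0.144 to 0.703 for SIG3. Over all genes, leaving out 1 library gave 2365 to 3310 higher and 2545 to 3377 lower genes, and the 5 other lists of nuclear genes, which include the light and clock genes, gave 5 to 7 higher and 22 to 27 lower. With a replicate block, 3123 genes were higher and 3038 lower, against 3214 and 3199 without it, and no sigma factor call changed. Deviations of same-numbered libraries correlated at 0.00207, 0.0145 and 0.0156, and not every library correlated best with its own number, so the numbers were not taken as pairs.

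The share of SIG5 in the family sum was 7.11% in gi-2 and 14.4% in Col-0 without length correction, and 6.95% and 14.3% with the length of 1 RefSeq transcript, an alternative chosen after seeing the data. That of SIG4 in gi-2 was 5.42% without length correction. Leaving out 1 library gave 5.75% to 5.98% and 12.1% to 12.5% for SIG5, and 7.71% to 8.41% and 2.49% to 3.63% for SIG4. The log2 fold change of ndhF, not called, ran from -0.64 to 0.19 when 1 library was left out, turning positive without gi-2 replicate 2, and was 0.25 without that library and Col-0 replicate 1. Of the plastid genes read mainly by PEP, 1 to 6 were lower when 1 library was left out, with 1 without gi-2 replicate 2, 2 without gi-2 replicate 3 and 6 without gi-2 replicate 1, and 5 by limma-voom or with no filter. With 3 libraries a group, small differences such as that of SIG3 could be missed.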
